A study of Saccharomyces cerevisiae with 6 samples.

Results

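The mating-type specific genes examined here were 9 genes that only one of the yeast mating types normally uses. The alpha-specific genes were STE3, SAG1 and AFB1, and the a-specific genes were STE2, BAR1, MFA1, MFA2, STE6 and AGA2. They were taken from the array by their gene symbol, and all 9 were found, each on 1 spot with a value on all 6 arrays, among 5561 named genes. The 2 genes of the alpha-factor precursor, MF(ALPHA)1 and MF(ALPHA)2, are alpha-specific too and are described beside them.

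The 6 arrays were two-colour arrays of polyadenylated RNA from W303a, a laboratory strain of Saccharomyces cerevisiae of mating type a. In every culture the chromosomal TOR1 gene was deleted and TOR1 with a 3HA epitope tag came from a plasmid. TOR1 encodes a kinase of TOR complex 1, which ties growth to nutrients and is inhibited by caffeine. The plasmid allele was either unaltered (WT) or carried I1954V together with W2176R (mutant), and no source used here gives the promoter or copy number of the plasmids. Each allele was treated with 3, 6 or 9 mM caffeine, and each array set 1 treated culture, in Cy5, against untreated RNA of the same allele, in Cy3. There was thus 1 array per allele and dose, and no dose was repeated. The series title sets the response of the mutant allele to caffeine against that of WT.

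In budding yeast the mating-type locus decides which pheromone and which receptor a haploid cell makes. Alpha cells switch on the alpha-specific genes through the alpha1 activator and the Mcm1 protein, and they switch off the a-specific genes through the alpha2 repressor. In a cells alpha1 and alpha2 are absent, so that the a-specific genes are on, driven by Mcm1, and the alpha-specific genes are low. Pheromone from the partner acts through a receptor, a G protein and a kinase cascade on the Ste12 factor, which raises many genes for mating.

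Values are log2 ratios of caffeine over no caffeine, with the median of the named genes set to 0 on each array, so that 1 is a doubling relative to that gene. The array medians before centring lay between -0.54 and -0.22, and a centred value is above the deposited one by that amount. The sources used here do not state which channel was the numerator. Caffeine on top is the likely order, because with it the 130 genes of cytosolic ribosomal proteins, which are known to fall when TOR is inhibited, had medians of -1.87 in WT and -0.79 in the mutant at 9 mM. Their median was below 0 on every array, but on the mutant 3 mM array it was only -0.12, with 72 of the 130 below 0. That array by itself says little about the order. In the other order every sign below would turn. A log ratio carries no level, so the arrays could not show whether the alpha-specific genes were low before treatment, as the label of mating type a implies. In bulk RNA, fewer cells of a type and less RNA per cell cannot be told apart.

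For each allele limma fitted a line that starts at 0 without caffeine. Slopes are given as log2 change per mM ± SE, from 3 arrays per allele, with the spread pooled over both. A gene is said to have risen or fallen when its Benjamini-Hochberg adjusted p over 5212 genes was below 0.05. Because the line starts at 0, a gene above or below the median by a similar amount at every dose can also be called. Whether the doses were separate cultures is not known, nor whether the 3 arrays of an allele shared 1 untreated RNA, so the p-values cover scatter around the line that may be technical.

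In WT cells 6 of the 9 genes rose with caffeine and none fell. All 3 alpha-specific genes rose, together with the a-specific genes STE2, BAR1 and MFA2, whereas STE6, MFA1 and AGA2 did not pass the test. In the mutant, only AFB1 and AGA2 rose among the 9. Of all 5212 genes tested, 17.2% rose in WT and 12.1% rose in the mutant. Dose by dose, 2, 5 and 6 of the 9 genes were at least 2-fold above the array median in WT at 3, 6 and 9 mM, beside 9.57%, 14.2% and 17.3% of all genes. In the mutant the numbers were 0, 1 and 3, beside 4.3%, 7.35% and 14.4%. None of the 9 was 2-fold below the median on any array, where 8.73%, 13.4% and 18.3% of all genes were in WT and 8.54%, 17.8% and 14% in the mutant. STE3 and MFA2 climbed at each WT dose, as 16.8% of all genes did, and STE3, AFB1, STE2 and AGA2 climbed at each mutant dose, as 22.6% did.

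The median slope of the 9 genes was 0.19 per mM in WT and 0.05 in the mutant, beside 0.00053 and 0.00019 over all genes. The 9 genes were put together after earlier results of these arrays were known, so these counts describe them and are no independent test of the set.

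**Figure D1:**
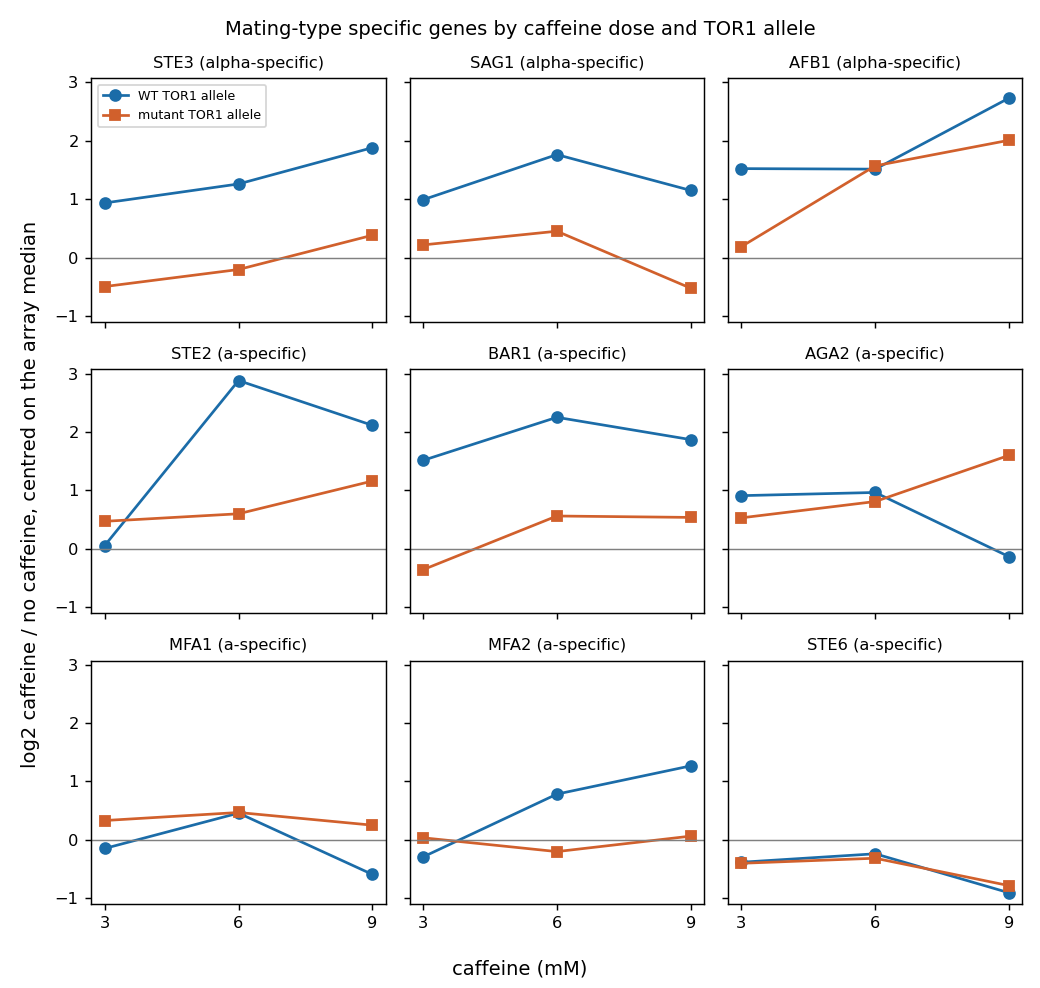
Centred log2 ratio of caffeine over no caffeine (y axis) against caffeine in mM (x axis) for the 9 genes, with circles for the WT and squares for the mutant TOR1 allele, 1 array per point and therefore no error bar. STE3, SAG1 and BAR1 lie higher in WT than in the mutant at every dose, while STE6 runs almost together in both, from -0.39 to -0.91 in WT and from -0.40 to -0.79 in the mutant.

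STE3 encodes the receptor by which alpha cells sense a-factor. In WT its log2 ratio was 0.94 at 3 mM, 1.26 at 6 mM and 1.88 at 9 mM, and in the mutant it was -0.50, -0.20 and 0.38 at the same doses. Both alleles thus showed a steady climb from dose to dose, but the mutant started below the array median and its highest value stayed under the lowest of WT. The WT slope was 0.22 ± 0.04 per mM (limma, adjusted p = 0.00114), and the mutant slope was 0.0059 ± 0.04 (adjusted p = 0.924). At 9 mM STE3 stood 3.69-fold above the median gene in WT and was higher than 95.1% of all genes. On the mutant array at 3 mM it was higher than 25.1% of them.

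SAG1 encodes alpha-agglutinin, the adhesion protein on the wall of alpha cells that binds a cells. Its log2 ratio in WT was 0.99, 1.76 and 1.15 at the rising doses, against 0.22, 0.45 and -0.52 in the mutant. The WT values peaked at 6 mM and lay above all 3 mutant values. SAG1 rose in WT with a slope of 0.19 ± 0.05 (adjusted p = 0.00642), a call that ended without the WT 6 mM array (adjusted p = 0.0585). In the mutant the slope was -0.01 ± 0.05 (adjusted p = 0.878).

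AFB1 encodes a secreted protein of alpha cells that acts as a barrier to a-factor. It stood at 1.52, 1.52 and 2.73 in WT and at 0.19, 1.57 and 2.01 in the mutant. At 3 mM only WT was high, while at 6 mM the alleles had nearly the same value, so their ranges overlapped. AFB1 rose in both alleles, by 0.30 ± 0.04 per mM in WT (adjusted p = 0.000144) and by 0.22 ± 0.04 in the mutant (adjusted p = 0.00287). With a 6.65-fold value in WT at 9 mM, it was the highest of the 9 genes at that dose, and it was the 1 alpha-specific gene that passed in the mutant.

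The precursors of alpha-factor, the pheromone that alpha cells secrete, did not pass the test in either allele. MF(ALPHA)1 had log2 ratios of 0.66, 0.42 and 0.38 in WT, against 0.36, 0.85 and 0.69 in the mutant, and its slopes were 0.06 ± 0.04 (adjusted p = 0.232) and 0.10 ± 0.04 (adjusted p = 0.0730). MF(ALPHA)2 had -0.15, 0.36 and 0.21 in WT, against -0.03, -0.27 and -0.49 in the mutant (adjusted p = 0.585 and 0.327). Counted with them, 3 of 5 alpha-specific genes rose in WT and 1 of 5 in the mutant.

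Among the a-specific genes, STE2 encodes the receptor for alpha-factor. Its WT log2 ratio was 0.05 at 3 mM, 2.88 at 6 mM and 2.11 at 9 mM, and its mutant values were 0.47, 0.60 and 1.16. WT was thus near the array median at the lowest dose, below the mutant there, and far above it at the higher doses. The spread over the WT doses, with a range of 2.83, was the widest of the 9 genes, and the 6 mM value was 7.36-fold. STE2 rose in WT by 0.29 ± 0.05 per mM (adjusted p = 0.000879), while the mutant slope of 0.12 ± 0.05 did not pass (adjusted p = 0.0849). Without the WT 6 mM array the mutant slope passed, with adjusted p = 0.0416.

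BAR1 encodes the secreted protease by which a cells degrade alpha-factor. Its log2 ratio was 1.51, 2.25 and 1.87 in WT, against -0.36, 0.56 and 0.54 in the mutant. All WT values exceeded all mutant values, with the highest WT value at 6 mM. BAR1 rose in WT, by 0.28 ± 0.05 per mM (adjusted p = 0.000673), and had a slope of 0.06 ± 0.05 in the mutant (adjusted p = 0.377). Over the 6 arrays its values ran most like those of STE3 among all pairs of the 9 genes, with Pearson's r = 0.91 (n = 6 arrays, which differ in allele and dose).

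AGA2 encodes the subunit of a-agglutinin that binds alpha-agglutinin on the partner cell. It stood at 0.91, 0.96 and -0.14 in WT and at 0.53, 0.81 and 1.60 in the mutant. The WT value at 9 mM was lower than at the other doses, while the mutant was highest there, and the alleles overlapped. AGA2 rose in the mutant, by 0.17 ± 0.05 per mM (adjusted p = 0.0189), a call that ended without the mutant 9 mM array (adjusted p = 0.219), without centring (adjusted p = 0.0830) and with arrays scaled to a common spread (adjusted p = 0.0571). The WT slope was 0.06 ± 0.05 (adjusted p = 0.353) and passed only without the WT 9 mM array, at 0.19 per mM (adjusted p = 0.0487).

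MFA1 and MFA2 are the 2 genes for the precursor of a-factor, the lipid-modified pheromone of a cells. MFA2 had log2 ratios of -0.30, 0.78 and 1.26 in WT and of 0.03, -0.20 and 0.06 in the mutant. It climbed with each WT dose and stayed near the array median in the mutant. MFA2 rose in WT by 0.12 ± 0.04 per mM (adjusted p = 0.0324), but the call rested on 2 arrays: leaving out WT 6 mM gave an adjusted p of 0.0963 and leaving out WT 9 mM gave 0.395. Scaling the arrays to a common spread also ended it (adjusted p = 0.123), as did a plain mean over the doses (adjusted p = 0.150). MFA1 stood at -0.15, 0.46 and -0.59 in WT and at 0.33, 0.47 and 0.25 in the mutant. Its slopes were -0.02 ± 0.04 in WT (adjusted p = 0.678) and 0.05 ± 0.04 in the mutant (adjusted p = 0.388). The pair therefore moved apart in WT at 9 mM, where MFA2 was 1.26 and MFA1 -0.59, although this difference between genes was not tested.

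STE6 encodes the transporter that exports a-factor from a cells. Its log2 ratio was -0.39, -0.24 and -0.91 in WT, against -0.40, -0.32 and -0.79 in the mutant. It was the 1 gene of the 9 below the array median on all 6 arrays, and the alleles had almost the same values at each dose. The slopes were -0.09 ± 0.04 in WT (adjusted p = 0.0933) and -0.08 ± 0.04 in the mutant (adjusted p = 0.115). On the values as deposited, which lie lower, STE6 fell in both alleles (adjusted p = 0.0124 and 0.0104), and MFA2 no longer rose in WT (adjusted p = 0.209).

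**Figure D2:**
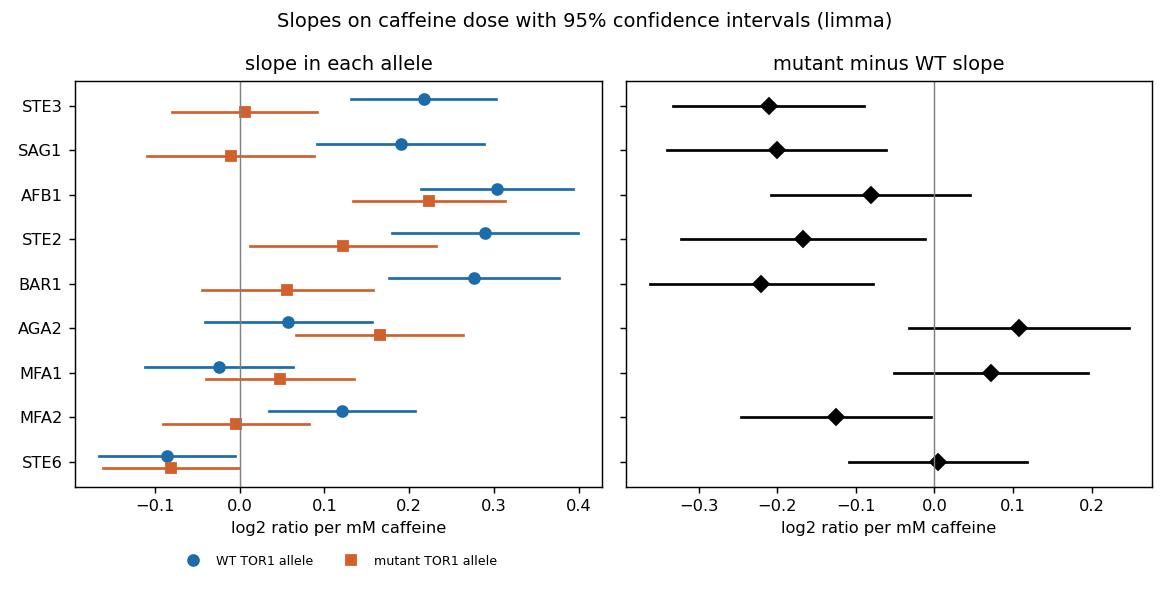
Left, the slope on caffeine dose (x axis, log2 ratio per mM) of each gene with its 95% confidence interval from limma, circles for WT and squares for the mutant. Right, the mutant minus WT slope with its interval. The intervals of STE3, SAG1 and BAR1 lie above 0 in WT and include 0 in the mutant, and the difference of STE3 runs from -0.33 to -0.09 before adjustment for the number of genes.

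The calls in WT rested on the line passing through 0 at 0 mM. With an intercept shared by all arrays, which takes up a dye bias that is the same on every array of a gene, none of the 9 genes passed in WT or in the mutant. The adjusted p of the 6 genes that had risen in WT then ranged from 0.0831 (AFB1) to 0.779 (SAG1). The WT slopes were then 0.26 ± 0.08 for STE3, 0.29 ± 0.08 for AFB1, 0.31 ± 0.10 for STE2, 0.21 ± 0.09 for BAR1 and 0.19 ± 0.07 for MFA2, with larger errors than before, and 0.05 ± 0.08 for SAG1. No array had the dyes exchanged, so a constant dye bias and a response already complete at 3 mM cannot be told apart.

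The test of the alleles against each other called none of the 9 genes by slope. STE3 came closest, with a mutant minus WT slope of -0.21 ± 0.06 per mM (adjusted p = 0.0525), followed by BAR1 with -0.22 ± 0.07 (adjusted p = 0.0766) and SAG1 with -0.20 ± 0.06 (adjusted p = 0.0969). Because each line starts at 0, a constant offset between the alleles also counts as a difference in slope. For STE3 the mutant lay below WT by nearly the same amount at each dose, so its value does not show a different climb with dose. Over all genes 4.26% had a called difference. For STE2 the 95% interval of the difference ran from -0.32 to -0.01 and for MFA2 from -0.25 to -0.0037, both before adjustment for the number of genes (adjusted p = 0.203 and 0.222). The interval of STE6, from -0.11 to 0.12, lay around 0, and the other 3 genes had intervals that included 0. Leaving out 1 array could bring a call. Without the WT 9 mM array BAR1 (adjusted p = 0.0230) and SAG1 (adjusted p = 0.0368) were lower in the mutant, and without the mutant 9 mM array STE3 was (adjusted p = 0.0480).

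A slope gives most weight to the highest dose. A constant dye bias cancels in the mutant minus WT slope, since both alleles had the same doses. It also cancels in the mean of mutant minus WT over the 3 matched doses, with the dose as a block, which was used as well. On that measure STE3, SAG1 and BAR1 were lower in the mutant. This measure is an alternative to the slopes; as plain means over the doses, without the block, the difference passed for BAR1 alone (adjusted p = 0.0465). With the block, the mean difference was -1.47 ± 0.29 log2 units for STE3 (adjusted p = 0.0209), -1.25 ± 0.31 for SAG1 (adjusted p = 0.0380) and -1.63 ± 0.30 for BAR1 (adjusted p = 0.0168). For STE3 the differences at 3, 6 and 9 mM were -1.43, -1.47 and -1.50, nearly the same at each dose. Those of SAG1 were -0.77, -1.31 and -1.67, and those of BAR1 were -1.87, -1.69 and -1.33. Of all genes 6.1% were called lower in the mutant in this way.

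The other 6 genes were not called over matched doses. AFB1 had a mean difference of -0.67 ± 0.35 (adjusted p = 0.231), with the deficit of the mutant mainly at 3 mM, where it was -1.34. STE2 had -0.94 ± 0.47 (adjusted p = 0.216), with a mutant value 0.42 above WT at 3 mM and 2.28 below it at 6 mM. MFA2, AGA2 and MFA1 had -0.62, 0.40 and 0.44, each with adjusted p of 0.289 or more, and STE6 had 0.01 ± 0.29 (adjusted p = 0.986). For STE3, SAG1 and BAR1 every WT array lay above every mutant array, as it did for 14.6% of all genes, and these 3 were also the ones lower in the mutant at each matched dose, as 26.3% of all genes were. No gene of the 9 had every WT array below every mutant array, against 13.7% of all genes.

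**Figure D3:**
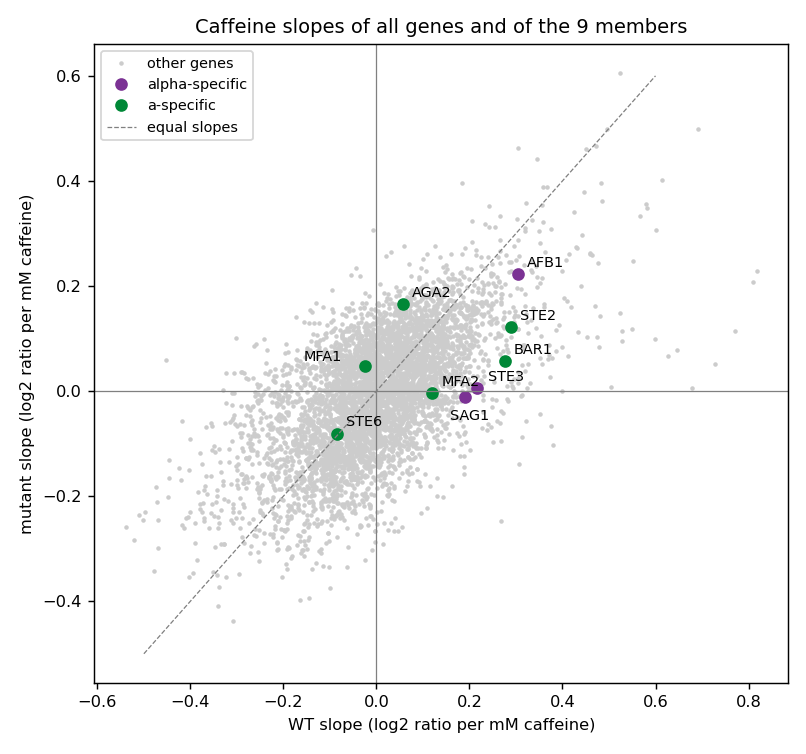
Slope on caffeine dose in the mutant (y axis) against that in WT (x axis), both in log2 ratio per mM, for 5212 genes (grey) with the alpha-specific (purple) and a-specific (green) genes named, and a dashed line where both slopes are equal. STE3, SAG1, MFA2 and BAR1 lie to the right of the line near a mutant slope of 0, AFB1 lies closer to the line, and AGA2 and MFA1 lie above it.

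The 5 genes whose values over the 6 arrays ran most like the mean of the 3 alpha-specific genes, by Pearson's r among the 5209 others, were SHE4, UGA1, YJL213W, UGA2 and SYS1, with r between 0.986 and 0.989. For the mean of the 6 a-specific genes, among 5206 others, they were FCY22, MST28, JJJ1, HIS3 and GRX5, with r between 0.977 and 0.995. FCY22 shared the peak at WT 6 mM, where it stood at 2.38 against 0.36 at 3 mM and 1.12 at 9 mM. With 6 points and this many genes such values are a description only.

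None of the 3 alpha-factor processing genes, KEX1, KEX2 and STE13, was called in either allele, nor was ASG7, another a-specific gene, or AXL1, the protease that trims a-factor. These 5 are named here although they were not called. Of 5 tested a-factor maturation genes, 1 rose in WT, and 1 rose and 1 fell in the mutant, beside 17.2% of all genes that rose in WT and 12.1% and 15.8% that rose and fell in the mutant. With so few genes these counts cannot be set apart from those shares. RAM2, a subunit of the enzyme that attaches the farnesyl lipid, rose in WT by 0.15 ± 0.04 per mM (adjusted p = 0.0106), and its partner subunit RAM1 fell in the mutant by 0.19 ± 0.05 per mM (adjusted p = 0.0155). RCE1, the protease that trims farnesylated proteins, rose in the mutant by 0.15 ± 0.05 per mM (adjusted p = 0.0247). Its mutant values were 1.23, 0.80 and 1.20 at 3, 6 and 9 mM, high throughout without a climb from dose to dose. Each of these calls ended without 1 array of its allele: RAM2 without WT 6 mM (adjusted p = 0.0704), RAM1 without mutant 6 mM (adjusted p = 0.0883) or 9 mM (adjusted p = 0.0642), and RCE1 without any of the mutant arrays (adjusted p up to 0.107).

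Of 17 genes of the G protein and kinase cascade below the receptors, 2 rose and none fell in WT, beside 17.2% and 16.3% of all genes. In the mutant 2 rose and 3 fell, close to the 12.1% and 15.8% of all genes that did. STE7, the MAP kinase kinase, rose in WT by 0.14 ± 0.04 per mM (adjusted p = 0.0206). CDC24, the exchange factor for Cdc42, rose in WT by 0.13 ± 0.04 (adjusted p = 0.0187) and in the mutant by 0.11 ± 0.04 (adjusted p = 0.0465). In the mutant DIG1, a repressor of Ste12, rose (slope 0.12, adjusted p = 0.0324), while its relative DIG2 (slope -0.16, adjusted p = 0.0179), the G protein gamma subunit gene STE18 (slope -0.14, adjusted p = 0.0339) and the adaptor gene STE50 (slope -0.13, adjusted p = 0.0456) fell. None of these calls was kept in all fits that left out 1 array, and the highest adjusted p in those fits lay between 0.0884 (CDC24 in WT) and 0.286 (STE7). In the mutant STE50 stood at -1.30, -1.04 and -0.68 at 3, 6 and 9 mM. It was thus below the median throughout but climbed from dose to dose. With a shared intercept its mutant slope was -0.0073 (limma, adjusted p = 0.984). The genes for the G protein alpha and beta subunits, GPA1 and STE4, the kinases FUS3 and KSS1 and STE12 itself, named here although outside the naming rule, were not called in either allele.

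Of 24 tested pheromone-induced genes, 5 rose and 1 fell in WT, and 4 rose and 4 fell in the mutant. Over all genes the shares that rose and fell were 17.2% and 16.3% for WT, against 12.1% and 15.8% for the mutant, so that the counts that rose, and those that fell in the mutant, lay near them. PRM5, CHS1, GIC2 and PCL2 rose in both alleles. CHS1, a chitin synthase, stood at 1.51, 1.98 and 2.33 in WT and at 0.73, 0.63 and 1.17 in the mutant (adjusted p = 0.000156 and 0.0315). PRM5, a membrane protein gene that the cell wall integrity pathway also controls, stood at 2.04, 2.59 and 1.74 in WT and at 2.69, 1.38 and 2.06 in the mutant (adjusted p = 0.00629 and 0.0136). PRM5 was thus high at every dose without a climb from dose to dose. With a shared intercept its slopes were -0.067 in WT and -0.087 in the mutant (limma, adjusted p = 0.733 and 0.772). GIC2, a Cdc42 effector, reached 1.58 in WT and 1.63 in the mutant at 9 mM (adjusted p = 0.00250 and 0.0183). PCL2, a cyclin of the Pho85 kinase, reached 1.06 and 1.66 (adjusted p = 0.00873 and 0.0171). PRM9 rose and PRM4 fell in WT (adjusted p = 0.0468 and 0.0315).

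FUS1, the cell fusion gene that is a common reporter of the pheromone response, was not called, with slopes of 0.05 ± 0.04 in WT and 0.09 ± 0.04 in the mutant (adjusted p = 0.351 and 0.101). It is named here after its values were seen, as are PRM10 and AGA1. PRM10, a pheromone-regulated membrane protein gene, fell in the mutant to -2.52 at 9 mM and had the 1 called difference in slope of these 24 genes, at -0.31 ± 0.06 per mM (adjusted p = 0.0232). AGA1, the anchor subunit that holds Aga2 on the cell wall, stood at 0.74, 0.68 and 0.21 in WT and at -0.97, -0.47 and -1.46 in the mutant, where it fell (adjusted p = 0.0224). AGA1 and AGA2 thus had opposite signs on all 3 mutant arrays. In the fits that left out 1 array, the calls of CHS1 and GIC2 in WT and of PRM5 and PRM10 in the mutant held. Those of PRM5 and PCL2 in WT ended without the WT 6 mM array (adjusted p = 0.0714 and 0.0641), the difference of PRM10 likewise (adjusted p = 0.0931) and with scaled arrays (adjusted p = 0.153), and those of CHS1, GIC2, PCL2 and AGA1 in the mutant without the mutant 9 mM array (adjusted p = 0.205, 0.207, 0.276 and 0.248). Without the WT 9 mM array PRM9 and PRM4 had adjusted p = 0.802 and 0.351.

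**Figure D4:**
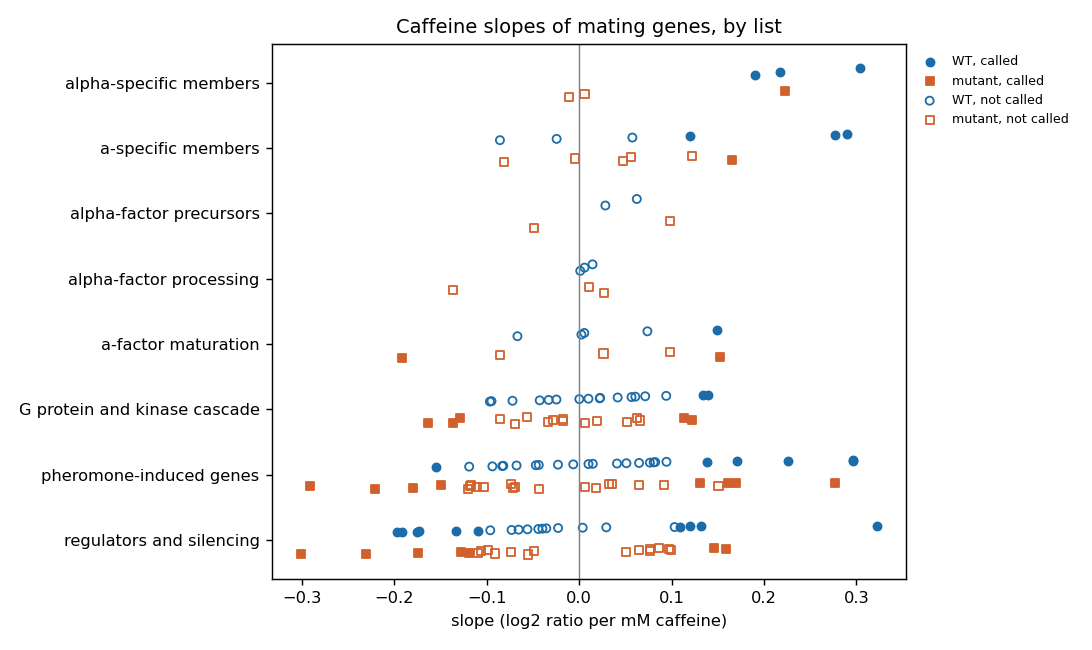
Slope on caffeine dose (x axis, log2 ratio per mM) of each tested gene of the mating lists (y axis), with circles for WT and squares for the mutant, filled where the limma adjusted p was below 0.05. All 3 alpha-specific genes are filled in WT, the alpha-factor precursors and processing genes are all open, and the cascade genes lie between -0.16 and 0.14.

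Among 21 tested genes that set or silence the mating type, 4 rose and 6 fell in WT, and 2 rose and 5 fell in the mutant. Of all genes 17.2% rose and 16.3% fell in WT, and 12.1% rose and 15.8% fell in the mutant, so that the counts that rose lay near these shares. RME1, a haploid repressor of meiosis, had the steepest WT slope of the list and rose in both alleles, with 1.09, 2.94 and 2.18 in WT, against 0.63, 0.84 and 1.28 in the mutant (adjusted p = 0.000229 and 0.0351). Its WT values peaked at 6 mM, as those of STE2 did. SIR2, the deacetylase that silences the spare mating-type genes, fell in both alleles, to -2.10 in WT and -2.52 in the mutant at 9 mM (adjusted p = 0.00476 and 0.000731). ORC1, the largest origin recognition subunit, fell in both as well (adjusted p = 0.00461 and 0.00204), and so did HST3, a relative of SIR2 (adjusted p = 0.0367 and 0.0146). RAP1 and ABF1, general factors that bind the silencers, fell in WT (adjusted p = 0.00195 and 0.00460). The calls of RME1, RAP1 and ABF1 in WT and of SIR2 and ORC1 in the mutant held without any 1 array. Those of SIR2 and ORC1 in WT ended without the WT 9 mM array (adjusted p = 0.261 and 0.147), that of RME1 in the mutant without the mutant 9 mM array (adjusted p = 0.200), and those of HST3 without the 6 mM array of the allele (adjusted p = 0.143 and 0.115), among others.

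The spots for the mating-type regulators themselves are named here after their values were seen. They cannot tell apart copies of the same sequence at different loci. In cells of mating type a the expressed locus gives no alpha1 or alpha2, and what the alpha1 and alpha2 spots measured here was not tested. HMLALPHA1, for the alpha1 activator, stood at -0.58, -0.79 and -0.81 in WT, where it fell (adjusted p = 0.0497), and at -0.93, -0.69 and -0.75 in the mutant (adjusted p = 0.0567). The spot named MATALPHA1 had no value on the mutant 3 mM array and lay between -1.34 and -0.50 on the other 5. The spots for alpha2 lay on the other side. MATALPHA2 stood at 0.60, 0.53 and 0.97 in WT, where it rose (adjusted p = 0.0474), and at 0.70, 0.88 and 0.54 in the mutant (adjusted p = 0.0795), while HMLALPHA2 rose in the mutant to 1.45 at 9 mM (adjusted p = 0.0143). HMRA2, which shares sequence with alpha2, rose in WT to 1.18 (adjusted p = 0.0128). Without 1 array of their allele the calls of HMLALPHA1, MATALPHA2, HMRA2 and HMLALPHA2 ended, with adjusted p up to 0.145, 0.260, 0.138 and 0.148. Those of HMLALPHA1 and MATALPHA2 held in only 1 of the 6 fits that left out 1 array. With a shared intercept the WT slopes of these 2 were -0.0035 and 0.023 (limma, adjusted p = 0.983 and 0.898). HMRA2 in WT and HMLALPHA2 in the mutant did not pass either (adjusted p = 0.375 and 0.492). MCM1, the partner of both regulators, was -0.71 in WT and -0.94 in the mutant at 9 mM and fell in the mutant (adjusted p = 0.0319). Whether the MCM1 call holds without 1 array was not examined.

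Cell wall genes, given for comparison because some mating genes respond to wall stress too, rose in 6 of 10 cases in WT and in 5 of 10 in the mutant, beside 17.2% and 12.1% of all genes. The kinase gene SLT2 rose in both, at 0.31 ± 0.05 and 0.19 ± 0.05 per mM (limma, adjusted p = 0.000827 and 0.0196). The mutant call ended without the mutant 9 mM array (adjusted p = 0.149) or the mutant 6 mM array (adjusted p = 0.0555). It also ended on values as deposited (adjusted p = 0.0617) and with scaled arrays (adjusted p = 0.0852). With a shared intercept SLT2 passed in neither allele (adjusted p = 0.544 in WT and 0.993 in the mutant). One of the 10, MLP1, named here although not called, is by its symbol a nuclear pore gene and not a cell wall gene. TOR1 stood between -0.25 and -0.06 in WT and between 0.24 and 0.37 in the mutant, and its slopes did not pass (adjusted p = 0.817 and 0.355).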

How the data were processed

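The authors deposited log2 ratios of both channels for 6214 probes on 6 arrays; per the labels, Cy5 was caffeine and Cy3 untreated RNA. Raising 2 to each value gave ratios in whole hundredths for 100% of values (tolerance 1e-04). No source used here gives the background correction, filters or normalization, or says which channel was divided by which, and signal over background was not examined. The platform annotation gave 5596 probes 1 symbol, none several, and left 618 unnamed. All 5596 matched RefSeq R64 by Entrez identifier. Spots of a gene were averaged and arrays centred on the median named gene. Genes with values on all 6 arrays (5212) entered limma (version 3.58.1, R 4.3.3; lmFit and eBayes; 4 residual and 9.69 prior degrees of freedom), 2-sided, and the procedure was tested on simulated data. The simulated WT slopes were lines through 0. Of genes given a log2 change of 1, 2 or 3 at 9 mM, 4.48%, 83.6% and 100% were called, with 9 false calls. A gene that was not called may therefore still have changed. The number of arrays limits the precision.

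Members and lists were chosen with earlier results of these arrays known. Named were all 9 members, MF(ALPHA)1, MF(ALPHA)2, TOR1, up to 6 called genes per list by absolute WT slope, and the 5 genes most like each class; exceptions are marked. The labels number no replicates; arrays of 1 dose were compared as a block. Alternatives were values as deposited, scaled arrays, a shared intercept, means without dose, other gene filters, single probes and each array left out. Promoter sequences were not used here.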

Additional observations from a re-analysis of the deposited data

Results flagged for a closer look

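Among the 9 genes and the other gene lists, PRM10 was the 1 gene whose slope differed between the alleles by the limma test. Its mutant minus WT slope was -0.31 per mM (WT slope 0.01, mutant slope -0.29, limma adjusted p = 0.0232). It fell short of the threshold without the WT 6 mM array (adjusted p = 0.0931). The genes most like each class are outside these lists, and their differences in slope are not given here. STE50 was above the array median on all 3 WT arrays and below it on all 3 mutant arrays, with a mean difference of -1.42 log2 units; the difference of its slopes did not pass (adjusted p = 0.0910), and the mean over matched doses did (adjusted p = 0.0227). AGA1 showed the same pattern, with a mean difference of -1.51 (adjusted p = 0.0644 for the slopes and 0.0215 over matched doses). Over all genes the matched-dose fit called 588 differences, against 194 for means over the doses without the block. Whether STE50 and AGA1 pass without the block was not examined. TOR1 lay below the median on all WT arrays and above it on all mutant arrays, with a mean difference of 0.44 that did not pass (adjusted p = 0.337 over matched doses).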

How the results depend on the processing

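With values as deposited, 5 of the 9 genes rose and 1, STE6, fell in WT, and 1 rose and 1 fell in the mutant; among all genes 489 rose and 1483 fell in WT (896 and 852 when centred), 201 and 1737 in the mutant (633 and 822), and 48 and 114 differed higher and lower (101 and 121). Signs that turned there were those of MF(ALPHA)2 in WT (-0.023), of STE3 (-0.056), BAR1 (-0.0060), MFA1 (-0.014) and TOR1 (-0.016) in the mutant, and of the difference of STE6 (-0.0063). Scaled arrays gave 1021 called genes in WT, 690 in the mutant and 0 differences by limma, with 5 and 1 of the 9 genes called higher, and a STE6 difference of -0.0028. A shared intercept left 144 genes in WT and 22 in the mutant, 0 of the 9 in each, and 1 of the 9, STE3, differed. AGA2 (-0.052), MF(ALPHA)1 (-0.014), PRM5 (-0.067) and HST3 (0.0074) then turned in WT, and BAR1 (-0.0058), MFA1 (-0.0076), MFA2 (0.070), PRM5 (-0.087) and SLT2 (-0.0027) in the mutant. Means over doses called 1 difference, BAR1, and turned STE3 (-0.11) and SAG1 (0.049) in the mutant. The matched dose as a replicate block called 588 differences, 3 of them among the 9; deviations from the allele means correlated at 0.35, 0.07 and 0.36 at 3, 6 and 9 mM, so that dose did not pair the arrays at every dose.

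Leaving out 1 array gave 1032 to 1853 called genes in WT, 584 to 1643 in the mutant and 19 to 298 differences, and among the 9 genes 4 to 6, 1 to 3 and 0 to 2. Slopes that changed sign ran from -0.064 to 0.051 (MFA1, WT) and, in the mutant, from -0.060 to 0.022 (STE3), -0.045 to 0.075 (SAG1) and -0.025 to 0.0072 (MFA2). Differences ran from -0.0030 to 0.11 (MFA1), -0.023 to 0.023 (STE6), -0.024 to 0.15 (AGA2) and -0.0014 to 0.075 (MF(ALPHA)1). The cause was not tested. With 6 arrays, no dye swap and no repeated dose, precision is limited, and signal over background was not examined.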
